A study of Rattus norvegicus with 21 samples.

Results

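Rat hearts reperfused after a short coronary occlusion were compared with sham-operated hearts by bulk RNA sequencing of the infarct zone, in Sprague Dawley rats. The comparison used 6 of the 21 libraries of the series, chosen by the sample names, and 11742 of the 17085 gene symbols counted had enough reads to be tested. In the 3 libraries of the group MI1h_R, the left anterior descending coronary artery had been ligated for 1 h and then reopened for 23 h. The 3 Sham libraries were the operated controls, and the labels describe their tissue too as infarct zone. Infarcted tissue was collected 24 h after the infarct began. No collection time is recorded for the Sham hearts. A further 2 groups of 3 libraries each were used for direct contrasts, MI6h_R with 6 h of ligation and 18 h of reperfusion, and MI24h, ligated for all 24 h. None of these 12 libraries carries the letter F that marks the other groups of the series. Age and sex are not in the labels, nor is it stated that each library is a separate animal, so p-values measure only a spread between samples. That spread was estimated over all 21 libraries, those marked F among them. Libraries are numbered 11, 31 and 41 in both Sham and MI1h_R, and values per library are given in that order.

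As background, the adult heart muscle cell burns mainly fatty acids, and its nuclear receptors of the ERR and PPAR families, with the coactivator PGC-1 alpha, switch on the genes of fat oxidation, the citric acid cycle and the respiratory chain. When a blocked artery is reopened, muscle that has died is cleared by neutrophils and then by monocytes and macrophages, which follow chemokines into the tissue. Surviving muscle cells at the border take up part of a fetal gene programme, and fibroblasts and immune cells begin to divide and to lay down a provisional matrix.

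The libraries held between 15642744 and 17053737 counts in Sham and between 12208041 and 13834832 in MI1h_R. Levels are given as CPM, counts per 1000000 counts of the library, with library sizes scaled by edgeR's TMM factors. Genes of the mitochondrial genome took 36.3% ± 2.54 (SD, n = 3) of all counts in Sham and 15.3% ± 3.36 (SD, n = 3) in MI1h_R, and the TMM factors were 0.535 to 0.677 in Sham against 0.996 to 1.16 in MI1h_R. The first principal component carried 68.9% of the variance and separated the groups, while the second, with 16.8%, separated libraries within them. Sham 31 stood apart from the other Sham libraries. Spp1, which encodes osteopontin, was at 0.0945, 612 and 3.84 CPM in Sham and at 3646, 3697 and 1809 CPM in MI1h_R, and the lysosomal glycoprotein gene Gpnmb was at 16.9, 940 and 25.1 CPM against 2799, 2186 and 2038 CPM. Both genes were thus far higher in Sham 31 than in its partners, yet no Sham library reached the MI1h_R range. The atrial natriuretic peptide gene Nppa had the same order, at 148, 1375 and 62.1 CPM in Sham and 2546, 1832 and 1892 CPM in MI1h_R. A different split was seen in interferon-response genes, which were named after their values had been seen: Irf7 was at 882, 58.8 and 229 CPM in Sham and 81, 119 and 628 CPM in MI1h_R, and Mx1 at 377, 23.2 and 32.5 CPM against 18.6, 49.3 and 466 CPM. Sham 11 and MI1h_R 41 were the high libraries for both, so the groups overlapped. Results that rest on 1 of these libraries are given with and without it.

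**Figure D1:**
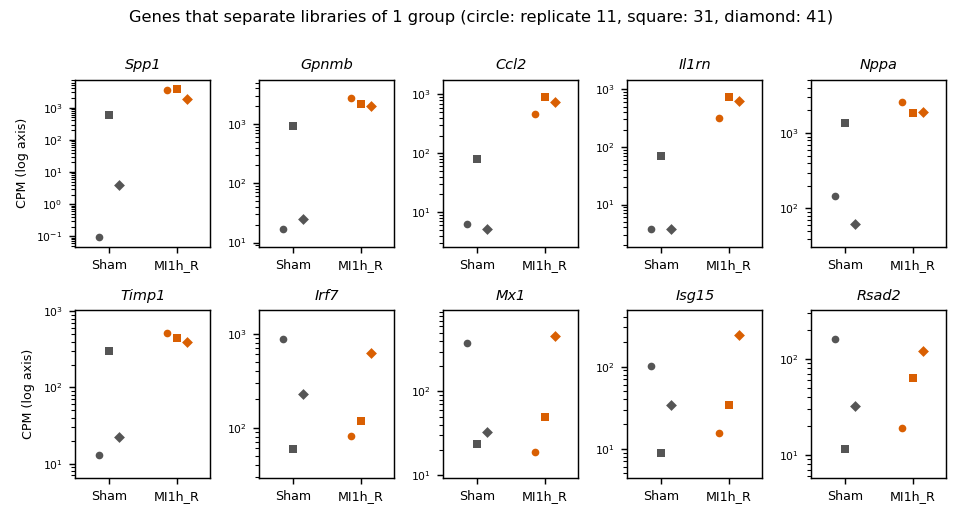
CPM per library on a log axis for 10 genes that split libraries within a group, with Sham and MI1h_R side by side and 1 symbol per replicate number. Sham 31 lies above the other Sham libraries for Spp1, Gpnmb, Ccl2, Il1rn, Nppa and Timp1, and Sham 11 and MI1h_R 41 are the highest of their groups for Irf7 and Mx1.

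Of the 11742 genes tested, 5809 (49.5%) differed at an adjusted p under 0.05 by edgeR's quasi-likelihood test with Benjamini-Hochberg adjustment, and these are referred to as called. Of them 2980 (25.4% of the genes tested) were higher and 2829 (24.1%) lower in MI1h_R than in Sham. The fold change was at least 2 on the linear scale, that is 1 on the log2 scale, for 3715 of the called genes. The groups did not overlap for 5153 of the called genes, and for 5788 of all 11742 genes tested. Leaving out each of the 6 libraries in turn kept 4177 calls in every fit. With the spread taken from Sham and MI1h_R alone, 3798 genes were called, 1679 higher and 2119 lower. The median log2 fold change over all genes tested was 0.06 under TMM scaling and 0.82 when libraries were scaled by their size alone, which gave 6597 higher and 1273 lower genes. Every one of the 2980 higher genes was also called by library size, while 523 of the 2829 lower genes had a positive sign there, so falls of around 1 on the log2 scale are relative to the TMM scaling. Counts of list members are read against the 25.4% higher and 24.1% lower over all genes. Where library size alone shifts the higher share of a list's calls by more than 10 percentage points, its counts are given beside the main ones. Other lists can still change in the number called. Of 28 lysosomal genes 12 were higher, or 27 by library size, and of 27 ion channel genes 21 were lower, or 15. Log2 fold changes are given with their standard error (SE).

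Genes that rose most included those of a macrophage enzyme, a chemokine and a transcription factor. Arg1, the arginase of alternatively activated macrophages, was at 3.5, 4.91 and 1.53 CPM in Sham and at 60.5, 128 and 95.2 CPM in MI1h_R, with no overlap and a change of 4.81 ± 0.58 (edgeR adjusted p = 5.73e-06). The monocyte chemokine gene Ccl12 had the largest rise among called genes with a mean of at least 10 CPM, no overlap and counts of their own, from 1.79, 3.73 and 0.658 CPM to 77.3, 222 and 243 CPM, a change of 6.42 ± 0.74 that reached 7.19 without Sham 31. The AP-1 subunit gene Fosl1 went from 0.85, 2.46 and 0.658 CPM to 29.8, 28.1 and 30.8 CPM, and MI1h_R values differed little among themselves. Its log2 fold change was 4.45 ± 0.38, and 5.29 without Sham 31.

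Several of the largest falls were in genes of striated muscle. Asb10 and Trim50, both muscle ubiquitin ligase components, changed by -6.33 ± 1.13 and -6.33 ± 0.99 on the log2 scale. Trim50 stood at 76.6, 32.7 and 124 CPM in Sham and at 1.01, 0.581 and 1.27 CPM in MI1h_R, so the groups were far apart. Slc2a4, the insulin-responsive glucose transporter GLUT4, was at 460, 331 and 664 CPM against 16.4, 13.1 and 14.8 CPM (-5.04 ± 0.75, edgeR adjusted p = 3.21e-05). Scn4b, a sodium channel subunit, was at 203, 104 and 182 CPM against 3.34, 8.13 and 3.55 CPM (-5.02 ± 0.96), and Ucp3, the muscle uncoupling protein, at 18.4, 16.8 and 31 CPM against 0.466, 0.871 and 0.761 CPM (-4.96 ± 0.90). In each of these the lowest Sham library was well above the highest MI1h_R library, though no overlap was a condition for naming the largest falls. Dpep1, a membrane dipeptidase listed with resting fibroblast genes, and not a muscle gene, was among the leading falls too, from 40.6, 26.9 and 55.2 CPM to 1.71, 1.09 and 0.952 CPM (-5.03 ± 0.55, edgeR adjusted p = 2.67e-06).

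**Figure D2:**
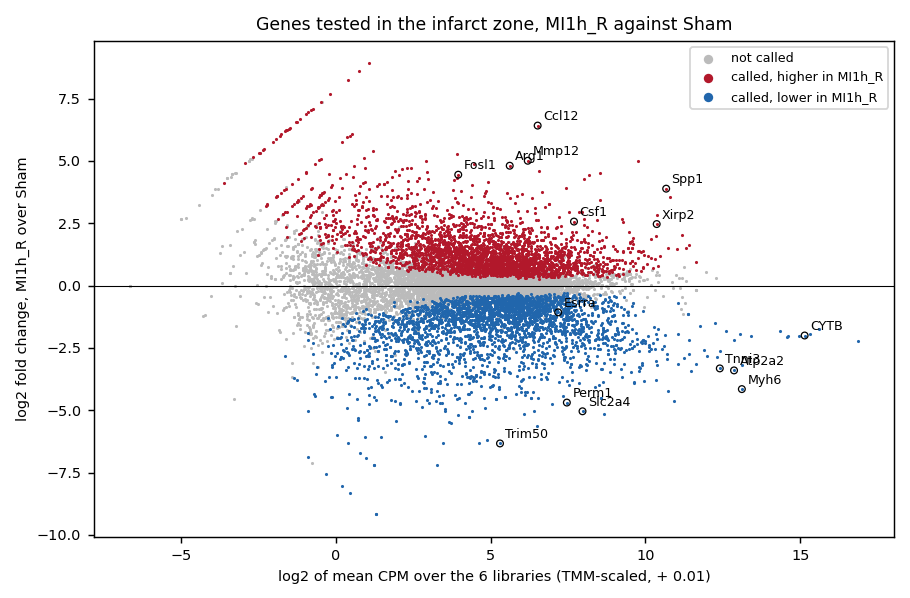
Log2 fold change of MI1h_R against Sham on the vertical axis for each gene tested, against its mean CPM over the 6 libraries on a log axis, with called genes coloured by direction. Of 11742 genes, 2980 lie among those called higher and 2829 among those called lower, and the labelled genes are described in the text.

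**Figure D3:**
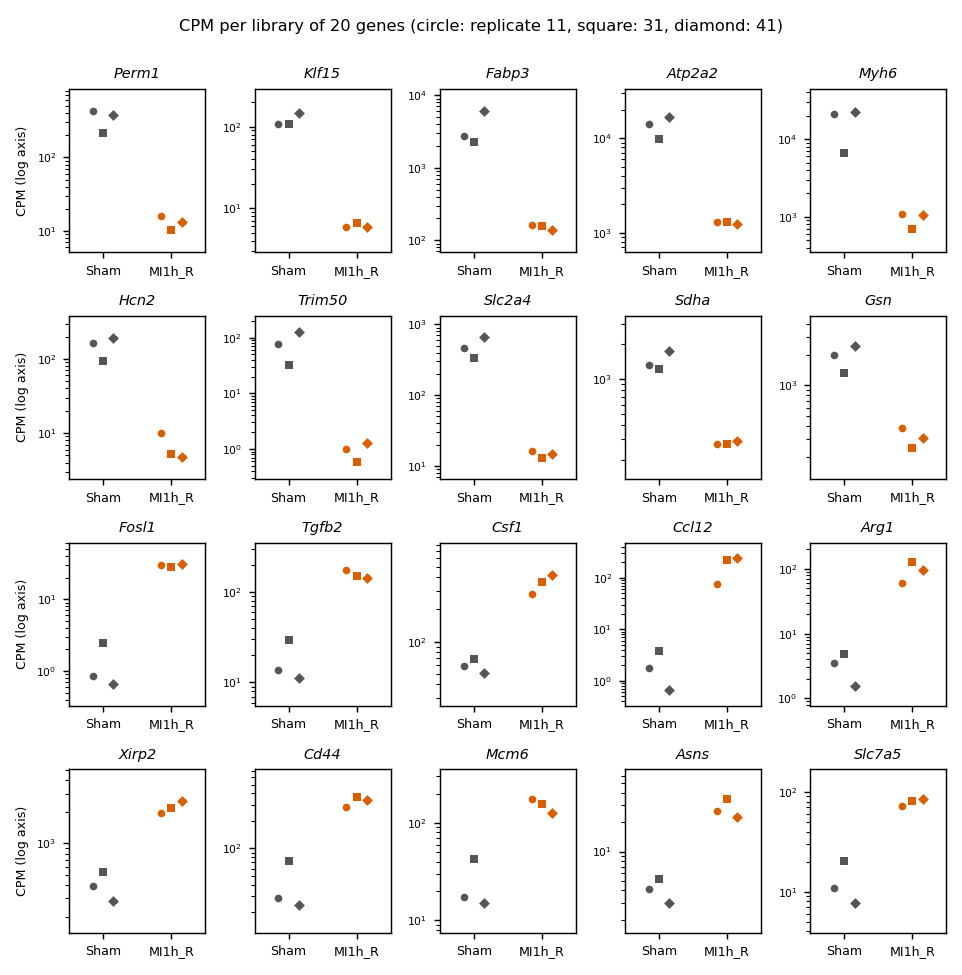
CPM in each of the 6 libraries on a log axis for 20 genes described in the text, Sham beside MI1h_R, with circles for replicate 11, squares for 31 and diamonds for 41. For Fosl1 the Sham libraries lie between 0.658 and 2.46 CPM and the MI1h_R libraries between 28.1 and 30.8 CPM.

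The receptors that govern energy metabolism were lower after reperfusion. Esrra, which encodes ERR alpha, was at 154, 186 and 249 CPM in Sham and at 91, 80.2 and 109 CPM in MI1h_R (-1.07 ± 0.16, edgeR adjusted p = 4.35e-05). Its fall depended on the scaling, at -0.27 and not called by library size. Esrrg, encoding ERR gamma, fell from 50.4, 18.6 and 27.1 CPM to 7.69, 4.79 and 9.14 CPM (-2.15 ± 0.45, edgeR adjusted p = 0.000681). Both receptors were below every Sham library in every MI1h_R library. Esrrb, at 8.69, 2 and 4.28 CPM against 0.7, 0.726 and 1.97 CPM, changed by -2.12 ± 0.67, and the call was lost without Sham 11 (-1.44), MI1h_R 11 or MI1h_R 31, while the value was -2.79 without MI1h_R 41. Ppara, encoding PPAR alpha, was at 26.9, 5.73 and 8.44 CPM against 1.94, 2.1 and 4.12 CPM (-2.32 ± 0.70), and Ppargc1a, encoding PGC-1 alpha, at 32.3, 9.01 and 16.1 CPM against 2.33, 2.83 and 4.89 CPM (-2.51 ± 0.82). Sham 11 was the high library for both, and without it Ppara stood at -1.37 and Ppargc1a at -1.89, neither of them called. By library size Esrrb stood at -1.33, Ppara at -1.57 and Ppargc1a at -1.73, none of them called, and of the 5 regulators Esrrg alone kept its call there (-1.38). Leaving out MI1h_R 11 or MI1h_R 31 also ended the call of Ppargc1a. The larger falls in this group belonged to Perm1, a muscle coactivator of ERR, from 426, 215 and 375 CPM to 15.9, 10.4 and 13.1 CPM (-4.69 ± 0.81, edgeR adjusted p = 0.000136), and to Klf15, a cardiac regulator of lipid and amino acid use, from 107, 107 and 146 CPM to 5.83, 6.68 and 5.96 CPM (-4.28 ± 0.76). Of 16 genes listed for the ERR, PPAR and PGC-1 axis, 12 fell and none rose, with a median of -1.72. By library size 5 fell and 3 rose (-0.94).

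An ERR response element, searched as TNAAGGTCA on both strands, was looked for from 250 bases before to 50 bases after the start of each gene. Promoters of 9076 of the tested genes were found in the RefSeq promoter table. The element was in 1.06% of those of genes called lower, 0.467% of those called higher, 0.528% of those not called and 1.15% of all 27457 promoters in the table. It was in none of the 25 promoters of fat oxidation genes found there, the 22 of the citric acid cycle list, the 28 of complex I or the 15 of the ERR and PPAR axis, and in 1 of 13 of complex V and 1 of 13 of the ion channel list. Matches in other lists included 1 of 9 promoters of complexes II and III. They also included 2 of 17 of the Fc receptor and phagocytosis list, most of whose genes rose. Promoters here and below were chosen after the values were seen. The 2 of this element are shown because their genes fell and hold it, marked by capitals, read on the opposite strand. They are taken 5′ to 3′ along the gene, from RefSeq on the GRCr8 assembly, which is not the build the counts were made on. Hcn2, a pacemaker channel gene, lies on the minus strand and its window is chr7:10639458-10639707. Atp5mc3, a subunit of the ring of ATP synthase, is also on the minus strand, with the window chr3:79220665-79220914.
Hcn2: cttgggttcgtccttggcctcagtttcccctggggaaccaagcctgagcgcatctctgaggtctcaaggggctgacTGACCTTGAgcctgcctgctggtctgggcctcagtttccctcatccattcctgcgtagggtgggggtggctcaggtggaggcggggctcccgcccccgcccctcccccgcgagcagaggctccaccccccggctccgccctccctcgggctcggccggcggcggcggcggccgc
Atp5mc3: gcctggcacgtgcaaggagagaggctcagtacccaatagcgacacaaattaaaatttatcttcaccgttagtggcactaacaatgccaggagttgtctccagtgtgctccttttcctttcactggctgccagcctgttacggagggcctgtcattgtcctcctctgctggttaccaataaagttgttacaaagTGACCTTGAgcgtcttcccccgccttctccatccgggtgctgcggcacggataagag
The element begins 174 bases before the start of Hcn2 and 57 bases before that of Atp5mc3. Hcn2 was at 165, 94.5 and 192 CPM in Sham and at 10.1, 5.15 and 4.82 CPM in MI1h_R, a change of -4.49 ± 0.57 (edgeR adjusted p = 8.2e-06). Atp5mc3 was at 1285, 1571 and 2179 CPM against 388, 431 and 261 CPM, a change of -2.22 ± 0.29 (edgeR adjusted p = 1.04e-05). Neither gene overlapped between the groups. A match to these letters describes the sequence and does not show that a receptor binds there.

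Subunit genes of the respiratory chain fell in nearly every case, those coded in the nucleus and those in the mitochondrion. Complex I, the entry point of electrons from NADH, had 30 of 31 tested subunits lower and none higher, with a median log2 fold change of -1.96. Complexes II and III had 12 of 12 lower (-2.29), complex IV, the oxidase, 11 of 13 (-1.78), and complex V, the ATP synthase, 13 of 14 (-1.77). Ndufs1, the largest complex I subunit, was at 1495, 1158 and 1966 CPM against 235, 293 and 216 CPM (-2.63 ± 0.29). Sdha, the flavoprotein of complex II, was at 1319, 1226 and 1756 CPM against 273, 275 and 289 CPM (-2.36 ± 0.26). Cyc1, cytochrome c1 of complex III, was at 1387, 1252 and 2018 CPM against 356, 325 and 283 CPM (-2.27 ± 0.23), and Cox4i1 of complex IV at 1727, 2378 and 3485 CPM against 705, 678 and 559 CPM (-1.97 ± 0.26). For all 4 of these subunits the lowest Sham value was more than 2 times the highest MI1h_R value. Of 13 genes of the mitochondrial genome, 12 fell, with a median of -1.94. CYTB, for instance, was at 52560, 49120 and 72030 CPM in Sham and 14350, 18340 and 10670 CPM in MI1h_R. The exception was ATP8, a short gene overlapping ATP6, at 5.48, 7.83 and 9.1 CPM against 5.52, 17.2 and 75.5 CPM, whose rise of 2.14 ± 0.63 became 0.61 and was not called without MI1h_R 41. The mitochondrial ribosome had 22 of 26 subunits lower and none higher (-1.21), or 12 and 3 by library size.

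Genes of fuel use fell as well. Among 29 genes of fatty acid oxidation, 28 fell and 1 rose, with a median of -2.96. Fabp3, the fatty acid carrier of heart muscle, was at 2761, 2285 and 6130 CPM against 163, 155 and 137 CPM (-4.62 ± 0.75, edgeR adjusted p = 7.57e-05), and Acadl, long-chain acyl-CoA dehydrogenase, at 1721, 2044 and 3219 CPM against 284, 387 and 190 CPM (-3.02 ± 0.43). MI1h_R libraries were all below the Sham range for both. Cd36, the fatty acid uptake receptor of muscle that macrophages also carry, went the other way, from 1.42, 17.8 and 3.84 CPM to 60.8, 98 and 41.3 CPM (3.11 ± 0.62, and 4.70 without Sham 31). Its Sham levels were very low beside those of Fabp3, and whether this symbol's counts hold the muscle transcript in full was not tested. All 25 tested genes of the pyruvate dehydrogenase complex and citric acid cycle fell (-2.22), as did all 19 of ketone and branched-chain amino acid use (-2.37). Of 13 lipid droplet genes 9 fell and 3 rose, and by library size 4 fell and 4 rose. Among the falls was Lpl, lipoprotein lipase, from 4294, 3529 and 6190 CPM to 933, 684 and 481 CPM (-2.74 ± 0.37). In contrast, Plin2, which coats lipid droplets in many cell types, rose from 122, 235 and 126 CPM to 443, 642 and 590 CPM (1.80 ± 0.32).

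Glycogen genes fell in 12 of 15 cases and rose in 2 (median -1.41), or 9 and 3 by library size, with Pygm, the muscle glycogen phosphorylase, at 1566, 1035 and 1859 CPM against 110, 103 and 96.8 CPM (-3.85 ± 0.56) and the synthase gene Gys1 at 276, 172 and 263 CPM against 40.2, 42.7 and 44.8 CPM (-2.48 ± 0.26). Glycolysis was divided. Of its 25 genes 11 fell and 8 rose, and the list median of -0.30 was positive by library size, at 0.47, with 6 lower and 12 higher. Ldhb, the lactate dehydrogenase chain of heart, fell from 4442, 4946 and 7829 CPM to 645, 814 and 494 CPM (-3.14 ± 0.48), while Slc2a1, the widely expressed transporter GLUT1, rose from 29.9, 29.4 and 30.7 CPM to 70.8, 68.2 and 96.7 CPM (1.39 ± 0.34, edgeR adjusted p = 0.00262). Eno1, the enolase found in most cells, rose from 630, 800 and 783 CPM to 1357, 1204 and 1096 CPM (0.72 ± 0.19). Among 13 genes of the creatine and adenine nucleotide shuttles 8 fell and 1 rose, or 6 and 3 by library size, and the falls included Ckm, muscle creatine kinase, from 4548, 3903 and 7295 CPM to 595, 517 and 339 CPM (-3.44 ± 0.51).

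Contractile genes fell beside these. Of 7 defining cardiomyocyte markers, 6 fell and none rose, and their summed level was 42900 to 90900 CPM in Sham and 6930 to 9720 CPM in MI1h_R. In bulk tissue, fewer cells of a type and less RNA per cell cannot be told apart, and the part of a lower cardiomyocyte share in the falls of metabolic and muscle genes was not tested. In the thick filament 8 of 11 genes fell (median -2.74). Myh6, the fast alpha myosin of the adult rat ventricle, was at 21390, 6661 and 22300 CPM against 1096, 701 and 1046 CPM (-4.15 ± 0.62, edgeR adjusted p = 3.4e-05). Sham 31 was the lowest Sham library for Myh6 and still lay above MI1h_R. Myh7, the slow beta myosin, was at 1724, 6074 and 1237 CPM against 1497, 1022 and 2196 CPM and did not pass the test (edgeR adjusted p = 0.209), with overlapping groups. Thin filament genes fell in 8 of 12 cases (-1.86), such as Tnni3, cardiac troponin I, from 7538, 8442 and 13520 CPM to 1024, 1246 and 692 CPM (-3.32 ± 0.48). Those that rose were the tropomyosins of non-muscle cells, Tpm3 at 136, 239 and 133 CPM against 683, 598 and 508 CPM (1.82 ± 0.21) and Tpm4 at 126, 140 and 97.7 CPM against 371, 330 and 532 CPM (1.76 ± 0.22), and Tpm2, which lost its call without MI1h_R 11 (edgeR adjusted p = 0.0263 with all libraries), Sham 11 or Sham 41.

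Of 17 Z-disc genes 5 fell and 4 rose, shares near those of all genes tested (24.1% and 25.4%). Their median was 0.02, and by library size 0.80, with 4 lower and 8 higher. Fhl2, a LIM protein of the adult Z-disc, fell from 957, 615 and 1188 CPM to 114, 97.2 and 98.5 CPM (-3.16 ± 0.38). Xirp2, an actin-binding protein of remodelling muscle, rose from 389, 535 and 282 CPM to 1962, 2178 and 2553 CPM (2.47 ± 0.27, edgeR adjusted p = 2.87e-06), and Flnc, the muscle filamin, from 393, 321 and 259 CPM to 1085, 883 and 1748 CPM (1.93 ± 0.30). Both of these muscle genes were higher in every MI1h_R library than in any Sham library.

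A MEF2 element, searched by that factor's consensus on both strands, was in 0.735% of the promoters of genes called lower, 0.255% of those called higher, 0.22% of those not called and 0.605% of all promoters. Mybpc3, cardiac myosin-binding protein C, is shown because it is a thick filament gene that holds one, 109 bases before its start. Its window is chr3:97550811-97551060 on the plus strand (RefSeq, GRCr8), with the element in capitals.
Mybpc3: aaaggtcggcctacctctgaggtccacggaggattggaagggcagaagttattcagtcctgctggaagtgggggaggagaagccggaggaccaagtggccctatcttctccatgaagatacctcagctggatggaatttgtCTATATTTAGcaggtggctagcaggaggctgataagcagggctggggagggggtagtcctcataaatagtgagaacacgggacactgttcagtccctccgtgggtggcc
Mybpc3 was at 1973, 2448 and 4170 CPM in Sham and 410, 352 and 528 CPM in MI1h_R, a change of -2.74 ± 0.51 (edgeR adjusted p = 0.000286) with no overlap.

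Genes of excitation and of its coupling to contraction mostly fell. Calcium handling had 16 of 24 genes lower and 3 higher (median -1.80), or 11 and 5 by library size. Atp2a2, the calcium pump of the sarcoplasmic reticulum, was at 14220, 9891 and 16690 CPM against 1295, 1308 and 1252 CPM (-3.40 ± 0.38, edgeR adjusted p = 2.95e-06), and its inhibitor gene Pln, phospholamban, at 2738, 2820 and 4086 CPM against 188, 216 and 118 CPM (-4.21 ± 1.00). Of 27 ion channel and pump genes 21 fell and 1 rose (-2.21), among them Kcna5, a potassium channel of repolarization, from 32.8, 9.28 and 25.8 CPM to 1.01, 1.31 and 2.03 CPM (-3.95 ± 0.63). At the intercalated disc 10 of 14 genes fell (-1.12), with Gja1, the gap junction protein connexin 43, at 724, 582 and 744 CPM against 159, 221 and 318 CPM (-1.55 ± 0.32). By library size the disc list had 2 lower and 2 higher calls. Cardiac transcription factors fell in 11 of 20 cases and rose in 1 (-1.18), or 7 and 4 by library size, such as Nkx2-5, at 148, 152 and 185 CPM against 56, 31.7 and 28.6 CPM (-2.06 ± 0.37), and Gata6, at 52.7, 34.2 and 39.6 CPM against 8.78, 6.24 and 10.3 CPM (-2.32 ± 0.38). Ubiquitin ligase genes of muscle fell in 16 of 21 cases and none rose (-2.84), or 15 and 2 by library size, including Trim63, the ligase MuRF1, at 110, 126 and 184 CPM against 16.2, 20.9 and 19.6 CPM (-2.89 ± 0.45).

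Genes of stretch and of the fetal programme rose or did not pass the test. Of 17 listed, 10 rose and none fell (median 1.51). Ccn1, a matricellular target of mechanical signals, went from 28.6, 58.9 and 45.6 CPM to 223, 191 and 148 CPM (2.08 ± 0.23, edgeR adjusted p = 3.33e-06). Nppb, the B-type natriuretic peptide, went from 162, 332 and 135 CPM to 618, 614 and 345 CPM (1.33 ± 0.33), and the groups met closely at Sham 31 and MI1h_R 41. The rise of Nppa was 1.98 ± 0.69 with all libraries (edgeR adjusted p = 0.0234) and 4.33 without Sham 31, but the call was lost without MI1h_R 11, Sham 11 or Sham 41. Ankrd1, a stretch-responsive cardiac ankyrin repeat gene, was at 1600, 4837 and 3318 CPM against 5033, 5592 and 3509 CPM and did not pass the test (0.53 ± 0.37, edgeR adjusted p = 0.241). Gdf15, a stress cytokine, rose from 2.17, 3.82 and 2.3 CPM to 14.2, 9.51 and 5.2 CPM (1.79 ± 0.44).

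Chemokines draw leukocytes into tissue, and many of the CC class rose. Of 20 tested CC chemokine and receptor genes 13 rose and 2 fell (median 1.88), and by library size 13 rose and none fell. Ccl2 was at 6.33, 79.5 and 5.15 CPM in Sham and at 472, 890 and 754 CPM in MI1h_R, and the related chemokine gene Ccl7 at 5.95, 64.4 and 4.83 CPM against 344, 611 and 519 CPM. Sham 31 was the high control library in both, and the changes of 4.53 ± 0.72 and 4.29 ± 0.70 became 6.96 and 6.53 without it. Ccr1, a receptor of this class, rose from 9.07, 29.5 and 9.1 CPM to 89.2, 132 and 163 CPM (3.01 ± 0.47, and 3.84 without Sham 31). CXC genes were mixed, with 7 of 21 higher and 5 lower, or 12 and 3 by library size. The neutrophil chemokine gene Cxcl1 rose from 0.189, 4.19 and 0.768 CPM to 17.1, 15.8 and 15.1 CPM (3.19 ± 0.67, and 5.11 without Sham 31), whereas Cx3cl1, fractalkine, fell from 75.4, 36.1 and 43.8 CPM to 18.6, 14.4 and 17.8 CPM (-1.61 ± 0.30) and the scavenging receptor gene Ackr3 from 178, 135 and 185 CPM to 66.9, 44 and 45.1 CPM (-1.68 ± 0.25).

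Interleukin-1 signalling had 16 of 26 genes higher and 1 lower (median 0.96). Its agonist gene Il1b rose from 2.93, 17.1 and 3.51 CPM to 37.4, 71.1 and 49.8 CPM (2.74 ± 0.51, and 4.05 without Sham 31). The antagonist gene Il1rn rose from 3.69, 69.5 and 3.73 CPM to 314, 734 and 618 CPM (4.43 ± 0.80, and 7.25 without Sham 31), and the decoy receptor gene Il1r2 from 0.85, 3.09 and 0.219 CPM to 21.4, 71.5 and 34.9 CPM (4.88 ± 0.75, 6.26 without Sham 31 and 4.29 without MI1h_R 31). Agonist and antagonists thus rose together. Il1rl1, the receptor of interleukin 33, went from 4.16, 3.28 and 2.19 CPM to 34.5, 21.6 and 13.3 CPM (2.84 ± 0.43, edgeR adjusted p = 4.24e-05). In the TNF and NF-kappa B list 14 of 24 genes rose and none fell (0.85), led by Csf1, the macrophage growth factor, at 58.8, 69.1 and 50.5 CPM against 279, 361 and 420 CPM (2.57 ± 0.18, edgeR adjusted p = 8.31e-08). The range of Csf1 within each group was narrow, and no library left out moved it beyond 2.43 to 2.72.

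**Figure D4:**
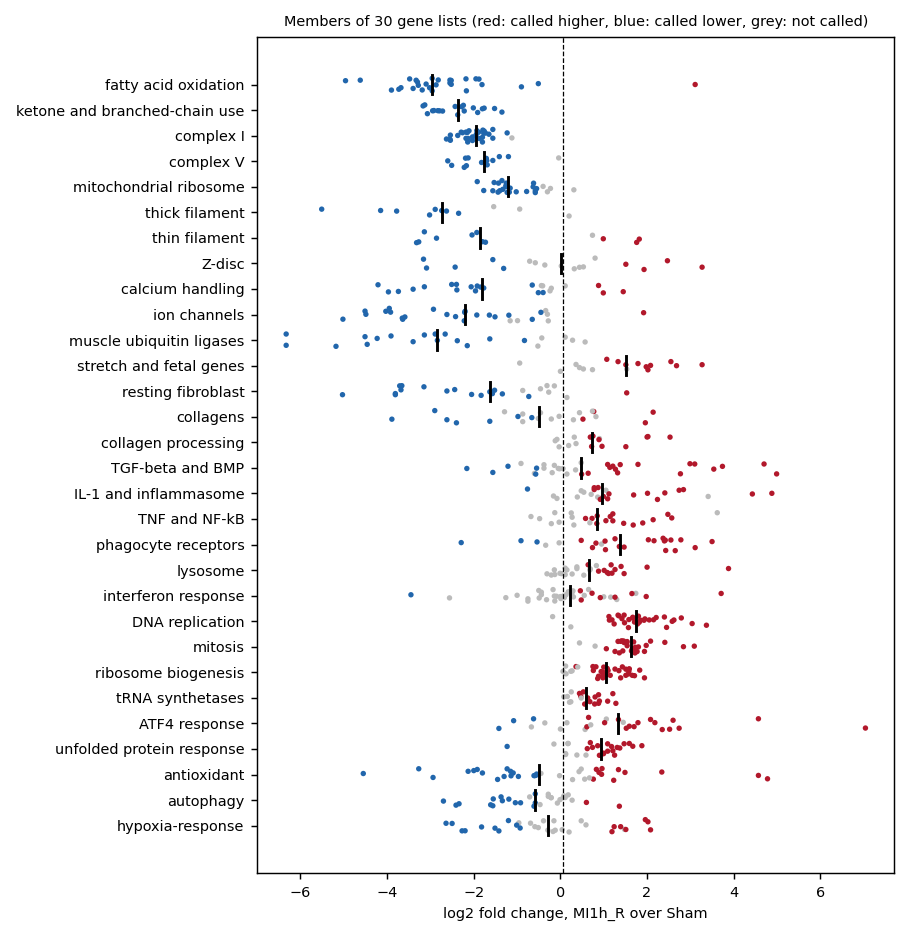
Log2 fold change of MI1h_R over Sham on the horizontal axis for each tested member of 30 gene lists, 1 point per gene, red where called higher, blue where called lower and grey where not called, with a black bar at each list's median and a dashed line at the median of all genes tested (0.06). The medians of fatty acid oxidation (-2.96) and of muscle ubiquitin ligases (-2.84) lie furthest left and that of DNA replication (1.75) furthest right of the lists drawn.

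Markers of leukocytes moved with these genes. All 6 defining neutrophil markers rose, with a summed level of 20.9 to 71.9 CPM in Sham and 444 to 861 CPM in MI1h_R. Of 8 defining monocyte or macrophage markers, 6 were among the symbols counted. Of those 6, 5 rose and 1 fell, at a summed 601 to 2650 CPM against 4300 to 5360 CPM. No counted marker of these cells was at 0 in all 6 libraries, and the part of cell number in the rises was not tested. Of 16 listed neutrophil genes 12 rose and none fell (median 3.68). S100a9, a chain of the neutrophil protein calprotectin, was at 12.6, 33.4 and 18 CPM in Sham and 210, 392 and 377 CPM in MI1h_R (3.93 ± 0.57), and Cxcr2, the receptor that guides neutrophils, at 1.32, 2.18 and 0.658 CPM against 14.5, 30.6 and 34.3 CPM (4.22 ± 0.65). MI1h_R 11 was the lowest of its group in both. Recruited monocyte genes rose in 15 of 20 cases and fell in 2 (2.19), or 16 and none by library size. The integrin gene Itgam, encoding CD11b, was at 8.6, 48.1 and 9.65 CPM against 170, 221 and 252 CPM (3.27 ± 0.50, and 4.58 without Sham 31), and Lgals3, galectin 3, at 37.9, 444 and 49.9 CPM against 1009, 1164 and 992 CPM (2.57 ± 0.63, and 4.61 without Sham 31). Resident macrophage genes rose in 4 of 12 cases and fell in 1 (0.27). Among those, Mrc1, the mannose receptor CD206, rose from 59.1, 106 and 45.5 CPM to 168, 189 and 172 CPM (1.33 ± 0.32), and Gas6, a bridging ligand for dead cells, fell from 667, 518 and 786 CPM to 172, 107 and 125 CPM (-2.29 ± 0.30).

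The machinery for clearing dead cells rose with the phagocyte markers. Of 26 genes of Fc receptors and phagocytosis 19 rose and 3 fell (median 1.37). Mertk, the receptor that binds Gas6-coated dead cells, rose from 8.12, 4.55 and 3.4 CPM to 20.6, 26.9 and 47 CPM (2.55 ± 0.33, edgeR adjusted p = 1.05e-05) while its ligand Gas6 fell. Rac2, a GTPase of the oxidative burst, went from 35.7, 72.3 and 38.3 CPM to 135, 156 and 116 CPM (1.47 ± 0.25). Lysosomal genes rose in 12 of 28 cases and none fell (0.66), such as the protease gene Ctsb, from 700, 1797 and 833 CPM to 3657, 3171 and 2397 CPM (1.47 ± 0.31), and Atp6v1a, of the proton pump, from 85, 130 and 80.6 CPM to 245, 258 and 203 CPM (1.26 ± 0.22). Complement genes went both ways. Itgax, encoding CD11c, an integrin chain that binds complement, rose and was at 9.54, 9.46 and 4.17 CPM against 34, 46.8 and 97.1 CPM (2.93 ± 0.41), and the soluble regulator Serping1, the C1 inhibitor, fell from 212, 200 and 260 CPM to 58.1, 36.6 and 45.5 CPM (-2.26 ± 0.34). In all, 7 of 20 complement genes rose and 8 fell, with a median of -0.66 that was 0.15 by library size, with 8 higher and 4 lower.

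Of 22 lymphocyte genes 6 were higher and 5 lower, shares near the 25.4% and 24.1% of all genes tested. The counts were 11 and 1 by library size, and without MI1h_R 31 the higher calls numbered 3. Of the 6 defining markers of T, NK and B cells, 2 rose and 1 fell, with a summed level of 14.2 to 47.5 CPM in Sham and 158 to 219 CPM in MI1h_R, nearly all of it from Cd8a. Cd8a was at 4.44, 31.9 and 5.48 CPM against 210, 209 and 150 CPM (3.76 ± 0.66, and 5.28 without Sham 31) and Cd8b at 0.661, 2.73 and 0.658 CPM against 17.4, 13.9 and 13.7 CPM (3.44 ± 0.65, and 4.51 without Sham 31). Both encode chains of the CD8 coreceptor, which marks cytotoxic T cells and, in the rat, is also carried by other leukocytes. Cd4 fell from 40.1, 20.8 and 25.7 CPM to 12.2, 13 and 14.1 CPM (-1.14 ± 0.26), and Foxp3, the regulator of suppressive T cells, from 1.23, 1.73 and 3.84 CPM to 0.0777, 0.29 and 0.254 CPM (-3.37 ± 0.76, and -2.77 without Sham 41). The cytotoxic granule gene Nkg7 fell as well, at 7.65, 13.4 and 15 CPM against 3.96, 3.41 and 4.7 CPM (-1.57 ± 0.40, edgeR adjusted p = 0.00331). Of 42 interferon genes 8 rose and 1 fell (median 0.21), 14 rose and none fell by library size, and 4 rose without MI1h_R 41 and 5 without Sham 41. Ifi27, among the most abundant of them, was at 859, 532 and 1383 CPM against 498, 325 and 565 CPM and did not pass the test (edgeR adjusted p = 0.157).

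Genes of cell division rose nearly throughout. Of 32 DNA replication genes 30 rose and none fell (median 1.75), and of 29 mitosis genes 27 rose and none fell (1.64). Mcm7, part of the replicative helicase, was at 27.4, 46.5 and 29.4 CPM in Sham and 122, 106 and 112 CPM in MI1h_R (1.71 ± 0.18, edgeR adjusted p = 2.38e-06). Pole, the leading-strand polymerase, was at 3.69, 4.46 and 5.15 CPM against 22.6, 18.1 and 29.6 CPM (2.40 ± 0.26), and Incenp, of the chromosomal passenger complex of mitosis, at 6.61, 7.92 and 2.08 CPM against 28.4, 32.9 and 28.1 CPM (2.41 ± 0.32). For these 3 genes the highest Sham library was below the lowest MI1h_R library. Regulators rose in 16 of 30 cases and fell in 2 (1.08), or 25 and none by library size, with E2f1, which drives entry into replication, at 7.28, 9.92 and 3.07 CPM against 29.2, 25.2 and 27.8 CPM (2.01 ± 0.28) and Chek1, a checkpoint kinase, at 100, 138 and 84.1 CPM against 251, 279 and 248 CPM (1.27 ± 0.16). In the DNA damage response list 11 of 27 rose and 3 fell (0.85). Sesn1, a sestrin that muscle also uses in nutrient sensing, fell from 124, 150 and 249 CPM to 30.5, 31.6 and 19.9 CPM (-2.67 ± 0.28).

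An E2F element, searched as TTTCCCGC or TTTGGCGC on both strands, was in the promoters of 12 of 27 matched replication genes (44.4%), against 1.53% of all promoters in the table. The mitosis list held it in 0 of 23 promoters and the list of cell cycle regulators in 3 of 21. Over all tested genes this element was in 3.61% of promoters of genes called higher, 1.75% of those called lower and 3.02% of those not called. Mcm6, a helicase subunit with the window chr13:42404353-42404602 on the minus strand, and Gins1, a helicase accessory factor with the window chr3:160184670-160184919 on the plus strand, are shown for 1 match and for a pair of overlapping matches (RefSeq, GRCr8), in capitals. Gins1 is named for this promoter alone.
Mcm6: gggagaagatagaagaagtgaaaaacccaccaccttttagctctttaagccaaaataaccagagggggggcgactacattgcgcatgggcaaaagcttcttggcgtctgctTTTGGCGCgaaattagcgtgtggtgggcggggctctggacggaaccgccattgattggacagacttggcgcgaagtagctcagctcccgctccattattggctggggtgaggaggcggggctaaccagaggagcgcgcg
Gins1: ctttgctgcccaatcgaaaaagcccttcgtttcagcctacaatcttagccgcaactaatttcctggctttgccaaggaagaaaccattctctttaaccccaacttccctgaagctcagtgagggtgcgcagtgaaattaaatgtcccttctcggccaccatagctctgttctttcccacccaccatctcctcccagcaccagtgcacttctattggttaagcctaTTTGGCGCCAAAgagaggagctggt
The match in Mcm6 begins 139 bases before the start, and those in Gins1 at 25 and 21 bases. Mcm6 was at 17.2, 42.5 and 15 CPM in Sham and 177, 155 and 128 CPM in MI1h_R (2.62 ± 0.29, and 3.27 without Sham 31). Gins1 was at 2.46, 9.1 and 2.08 CPM against 25.6, 21.9 and 13.8 CPM (2.15 ± 0.41, and 3.18 without Sham 31). Sham 31 was the highest Sham library in both and lay below MI1h_R.

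Many genes of ribosome biogenesis and of nucleotide synthesis rose too. Of 35 genes of ribosome biogenesis and translation 29 rose and none fell (median 1.06), including Ncl, nucleolin, from 196, 305 and 248 CPM to 674, 839 and 729 CPM (1.58 ± 0.18, edgeR adjusted p = 3.19e-06), and Ddx21, a nucleolar helicase, from 68.5, 77.7 and 61.9 CPM to 181, 206 and 235 CPM (1.58 ± 0.15). Cytosolic ribosomal protein genes depended on the scaling and on single control libraries, with 6 of 33 higher and none lower (0.45), 32 higher by library size (1.21), 21 without Sham 31 and 2 without Sham 11. One-carbon and nucleotide synthesis had 27 of 39 genes higher and 2 lower (0.78). Mthfd2, the mitochondrial folate enzyme of growing cells, rose from 14.1, 15.4 and 7.9 CPM to 45.8, 59.7 and 52.7 CPM (2.08 ± 0.21, edgeR adjusted p = 1.81e-06). Slc7a5, a large neutral amino acid transporter, went from 10.8, 20.2 and 7.79 CPM to 72.2, 80.1 and 84 CPM (2.60 ± 0.27), whereas the glutamine transporter Slc38a3 fell from 68.7, 50 and 101 CPM to 4.9, 3.12 and 5.01 CPM (-4.07 ± 0.61). Of 31 such transporters 15 rose and 8 fell, or 17 and 5 by library size. Cholesterol and lipid synthesis had 15 of 34 genes higher and 4 lower (0.57), or 28 and 2 by library size.

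The integrated stress response, in which ATF4 raises amino acid supply, had 16 of 27 genes higher and 3 lower (median 1.34), or 21 and none by library size. Asns, asparagine synthetase, was at 4.16, 5.19 and 2.96 CPM against 25.8, 34.7 and 22.3 CPM (2.74 ± 0.30, edgeR adjusted p = 2.48e-06). Atf4 mRNA itself was at 243, 325 and 405 CPM against 520, 604 and 318 CPM, with overlap, and did not pass the test (0.57 ± 0.25, edgeR adjusted p = 0.0667). Nor did Ddit3, encoding the death-linked factor CHOP, at 37.6, 40.2 and 80.4 CPM against 32.6, 47.2 and 43.1 CPM (edgeR adjusted p = 0.365). The unfolded protein response list, of chaperones and other genes of the endoplasmic reticulum, had 18 of 26 genes higher and 1 lower (0.95). Hspa5, the chaperone BiP, rose from 535, 897 and 805 CPM to 1623, 1907 and 1247 CPM (1.09 ± 0.28). Dnajb11 went from 55.4, 88.2 and 60.1 CPM to 153, 166 and 152 CPM (1.21 ± 0.20). The gene that fell was Herpud1, of protein degradation at that membrane, from 231, 225 and 352 CPM to 139, 119 and 85.3 CPM (-1.23 ± 0.28).

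An ATF4 element, searched as TGATGNAA on both strands, was in promoters of 6 of 15 matched aminoacyl-tRNA synthetase genes (40%), against 3.82% of all promoters. That list had the largest share of the lists searched. The integrated stress response list itself held the element in 4 of 23 promoters (17.4%), and one-carbon and nucleotide synthesis in 0 of 33. Of 20 tested genes of that list 14 rose and none fell (median 0.59). Tars1 and Aars1, which charge tRNA with threonine and alanine, are shown because both rose and hold the element on the opposite strand, in capitals (RefSeq, GRCr8). Aars1 is named for this promoter alone. The windows are chr2:62114803-62115052 on the minus strand for Tars1 and chr19:55908232-55908481 on the plus strand for Aars1.
Tars1: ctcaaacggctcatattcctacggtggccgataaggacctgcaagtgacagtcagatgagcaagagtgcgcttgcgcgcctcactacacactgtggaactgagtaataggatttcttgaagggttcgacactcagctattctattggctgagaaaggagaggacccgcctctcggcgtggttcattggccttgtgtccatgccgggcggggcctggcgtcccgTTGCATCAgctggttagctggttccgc
Aars1: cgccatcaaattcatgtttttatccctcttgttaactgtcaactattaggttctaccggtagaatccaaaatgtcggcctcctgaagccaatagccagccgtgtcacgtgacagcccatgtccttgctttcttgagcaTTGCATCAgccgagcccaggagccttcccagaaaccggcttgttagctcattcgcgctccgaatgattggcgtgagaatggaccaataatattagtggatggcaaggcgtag
The element begins 27 bases before the start of Tars1 and 112 before that of Aars1. Tars1 was at 54.8, 67.8 and 49.7 CPM in Sham and 140, 149 and 110 CPM in MI1h_R (1.21 ± 0.16, edgeR adjusted p = 1.17e-05). Aars1 was at 124, 136 and 131 CPM against 198, 192 and 187 CPM (0.56 ± 0.12, edgeR adjusted p = 0.000769). Both were separate between the groups, with little spread within them. Over all tested genes the element was in 2.29% of promoters of those called higher, 2.02% of those called lower and 1.76% of those not called.

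Matrix genes went both ways. Fibroblast genes of the resting heart fell in 16 of 23 cases and rose in 1 (median -1.63), or 12 and 3 by library size, and of 5 defining fibroblast markers 3 fell and none rose, with a summed level of 2760 to 3440 CPM in Sham and 908 to 1550 CPM in MI1h_R. The part of cell number here was not tested. Col3a1, type III collagen, was at 5440, 4967 and 5465 CPM against 2160, 1312 and 1660 CPM (-1.63 ± 0.37), and Col1a1, of type I, at 1704, 1082 and 1032 CPM against 890, 410 and 795 CPM, which did not pass the test (edgeR adjusted p = 0.0517). Gsn, the actin-severing protein gelsolin, had the smallest p among the resting fibroblast genes, at 1974, 1329 and 2409 CPM against 382, 242 and 304 CPM (-2.62 ± 0.25, edgeR adjusted p = 1.43e-06). Ogn, the proteoglycan osteoglycin, fell from 376, 238 and 435 CPM to 47, 45.2 and 26.1 CPM (-3.15 ± 0.43). Fn1, fibronectin, rose from 203, 489 and 152 CPM to 3071, 3740 and 2992 CPM (3.54 ± 0.56, and 4.22 without Sham 31), and Cd44, the hyaluronan receptor, from 28.2, 73.2 and 23.8 CPM to 282, 368 and 335 CPM (2.97 ± 0.34, and 3.68 without Sham 31). Hyaluronan synthase Has1 went from 1.04, 4.37 and 2.52 CPM to 23.9, 25.5 and 22.4 CPM (3.17 ± 0.45, and 3.79 without Sham 31). Enzymes that modify and crosslink collagen rose in 9 of 16 cases and none fell (0.73), with Plod2, a lysyl hydroxylase, at 59.3, 106 and 61 CPM against 203, 237 and 203 CPM (1.51 ± 0.24) and Lox, lysyl oxidase, at 11.3, 6.83 and 6.47 CPM against 30.5, 20.4 and 48.9 CPM (2.02 ± 0.38). Collagen genes as a list had 4 of 22 higher and 7 lower, with a median of -0.49 that was 0.30 by library size, with 8 higher and 5 lower.

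In the TGF-beta and BMP list 16 of 33 genes rose and 5 fell (median 0.48), or 22 and 2 by library size. The ligand gene Tgfb2 rose from 13.8, 29.2 and 11.1 CPM to 175, 148 and 142 CPM (3.10 ± 0.29, edgeR adjusted p = 1.32e-06), and the activin antagonist Fst, follistatin, from 0.661, 0.91 and 0.219 CPM to 6.68, 9.14 and 5.71 CPM (3.54 ± 0.40). Bmp6, a ligand of the BMP arm, fell from 19.8, 18.8 and 28.3 CPM to 6.45, 4.5 and 4.06 CPM (-2.16 ± 0.35). Ligand and antagonist of the activin and TGF-beta arm were above Sham in every MI1h_R library. Among growth factor genes 9 of 34 rose and 9 fell, near the shares of all genes (-0.06, or 0.71 by library size with 17 higher and 5 lower), with Hbegf, heparin-binding EGF, at 4.35, 6.92 and 4.83 CPM against 42.6, 36.4 and 44.4 CPM (2.93 ± 0.26, edgeR adjusted p = 1.32e-06).

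Proteases and their inhibitors rose in 16 of 27 cases and fell in 5 (median 0.95). Mmp9, the neutrophil gelatinase, went from 0.283, 3.19 and 1.86 CPM to 22.3, 24.2 and 31 CPM (3.85 ± 0.68, and 4.65 without Sham 31), while Mmp2, the constitutive gelatinase, fell from 389, 260 and 366 CPM to 97.8, 74.7 and 97.5 CPM (-1.91 ± 0.29). Timp1, their inhibitor, was at 13.1, 298 and 22.5 CPM against 512, 451 and 392 CPM. Its rise of 2.02 ± 0.70 became 4.69 without Sham 31, and the call was lost without MI1h_R 11, Sham 11 or Sham 41. Mmp12, the macrophage elastase, was at 0.0945, 12.7 and 0.11 CPM against 133, 192 and 102 CPM, a change of 5.01 ± 0.93 (edgeR adjusted p = 0.000254) that was 10.35 without Sham 31 and 4.41 without Sham 11. Its promoter is shown as that of a gene with one of the largest rises that holds an AP-1 element, TGANTCA, in capitals, 87 bases before the start. The window is chr8:12866402-12866651 on the plus strand (RefSeq, GRCr8).
Mmp12: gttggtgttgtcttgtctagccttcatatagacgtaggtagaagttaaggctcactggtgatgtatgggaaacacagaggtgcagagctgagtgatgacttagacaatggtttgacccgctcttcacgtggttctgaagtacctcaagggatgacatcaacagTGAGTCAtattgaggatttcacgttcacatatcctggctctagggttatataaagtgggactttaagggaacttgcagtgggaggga
That element was in 5.9% of promoters of genes called higher, 5.24% of those called lower, 4.6% of those not called and 7.33% of all promoters.

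Endothelial genes fell in 7 of 20 cases and rose in 1 (median -0.41, or 0.35 by library size with 3 lower and 7 higher). Of 5 defining endothelial markers, 3 were among the symbols counted. Of those 3, 1 fell and none rose, with a summed level of 393 to 803 CPM against 311 to 490 CPM. Fabp4, a fatty acid carrier of capillaries and fat cells, fell from 753, 828 and 1075 CPM to 214, 197 and 178 CPM (-2.17 ± 0.41). Vegfa, the vessel growth factor, fell from 320, 309 and 474 CPM to 94.2, 94.4 and 124 CPM (-1.82 ± 0.33, edgeR adjusted p = 0.000238), as did Vegfb, from 174, 147 and 197 CPM to 47, 27.5 and 30.3 CPM (-2.31 ± 0.30). Their relative Pgf, placental growth factor, rose from 3.12, 6.19 and 3.4 CPM to 18.6, 18.6 and 17.8 CPM (2.11 ± 0.30). Angpt1, the angiopoietin that steadies vessels, fell from 19.6, 8.01 and 14 CPM to 2.56, 1.45 and 2.73 CPM (-2.62 ± 0.49). In the fibrinolysis and clotting list 9 of 24 genes rose and 4 fell (-0.19, or 0.59 by library size with 11 higher and 1 lower), and Plau, urokinase, rose from 2.55, 16.7 and 4.61 CPM to 61.2, 106 and 107 CPM (3.51 ± 0.43, and 4.71 without Sham 31).

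Hypoxia genes went both ways 23 h after reflow. Of 31 listed, 7 rose and 10 fell, shares not far from the 25.4% and 24.1% of all genes tested. Their median was -0.29 (0.49 by library size, with 15 higher and 6 lower). Egln1, an oxygen-sensing hydroxylase, fell from 222, 182 and 268 CPM to 88.1, 76.5 and 70.7 CPM (-1.51 ± 0.19), and Pdk1, a kinase that inhibits pyruvate dehydrogenase, from 263, 231 and 335 CPM to 48.5, 58.7 and 39.2 CPM (-2.50 ± 0.26). Hif1a, the oxygen-regulated factor whose control is mainly on the protein, rose at the mRNA level from 114, 126 and 102 CPM to 218, 332 and 258 CPM (1.24 ± 0.28, edgeR adjusted p = 0.00125).

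Antioxidant genes went both ways, 11 of 36 higher and 18 lower (median -0.50, or 0.26 by library size with 17 higher and 9 lower). Cat, catalase, fell from 415, 385 and 482 CPM to 111, 122 and 106 CPM (-1.92 ± 0.21), and mitochondrial Prdx3 from 553, 509 and 827 CPM to 147, 181 and 103 CPM (-2.13 ± 0.25). Slc7a11, the cystine importer, rose from 0.661, 1.09 and 0 CPM to 9.64, 19.9 and 14.4 CPM (4.57 ± 0.59, and 5.37 without Sham 31), and Hmox1, heme oxygenase 1, from 22.5, 214 and 38.5 CPM to 526, 586 and 279 CPM (2.34 ± 0.64, and 3.94 without Sham 31). Cell death genes rose in 15 of 38 cases and fell in 4 (0.56), or 30 and 2 by library size, with the pore-forming Bak1 at 30.3, 37.2 and 25.2 CPM against 65.7, 61.8 and 74.3 CPM (1.12 ± 0.15). Bnip3, a mitophagy receptor of heart muscle, fell from 349, 347 and 474 CPM to 56.6, 75.5 and 56.2 CPM (-2.64 ± 0.37).

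Autophagy genes fell in 14 of 29 cases and rose in 2 (median -0.58, or 0.20 by library size with 8 lower and 13 higher), among them Ulk1, the starting kinase, from 240, 143 and 207 CPM to 31.4, 28.7 and 30.8 CPM (-2.70 ± 0.28). Of 18 clock genes 7 fell and none rose (-0.48, or 0.28 by library size with 5 lower and 7 higher). Nr1d1, the repressor REV-ERB alpha, was at 137, 65.6 and 97.6 CPM against 20.9, 23.4 and 14 CPM (-2.37 ± 0.32) and Dbp, a clock output factor, at 123, 32.1 and 67.3 CPM against 23.2, 16 and 16.9 CPM (-1.99 ± 0.43). The time of day of collection is not in the labels. Of 24 heat shock genes 8 were higher and 7 lower, not far from the 25.4% and 24.1% of all genes, and by library size 13 and 4. Among them were Hsph1 at 59.1, 76.3 and 91.1 CPM against 168, 179 and 171 CPM (1.19 ± 0.18) and Bag3, a cochaperone of muscle, at 342, 413 and 499 CPM against 154, 135 and 136 CPM (-1.56 ± 0.23).

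Some genes were measured precisely and did not differ under TMM scaling. For 665 uncalled genes the 95% interval of the log2 fold change lay within 0.5 of 0. Psmd1, a proteasome subunit, was at 230, 232 and 269 CPM in Sham and 248, 262 and 240 CPM in MI1h_R (0.04 ± 0.12), and Rnf41, a ubiquitin ligase, at 46.8, 46.6 and 53.4 CPM against 49, 45 and 52.5 CPM. Their groups overlapped, but by library size Psmd1 stood at 0.81 and Rnf41 at 0.78, close to the shift of the median gene. Of 27 proteasome genes 2 rose and 2 fell, while by library size 24 rose and none fell.

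Direct contrasts placed the 1 h group against the longer occlusions. Their fold changes use no Sham library, but their p-values use the spread estimated over all 21 libraries. Against MI24h, 507 genes (4.32%) were called, 177 higher and 330 lower in MI1h_R, and against MI6h_R 283 (2.41%), 148 higher and 135 lower. These counts rested on single libraries. The first ran from 71 without MI24h 11 to 956 without MI1h_R 41, and the second from 22 without MI1h_R 31 to 1302 without MI1h_R 41. Calls that survived every library left out numbered 66 and 11. With the spread taken from the 2 groups alone, edgeR called 0 genes against MI24h and 90 against MI6h_R. For MI24h, 1871 genes were then at an unadjusted edgeR p under 0.05. Fitted on all 21 libraries, DESeq2 called 1073 genes against MI24h and limma-voom 1509.

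Against MI24h, 15 of the 31 hypoxia genes were lower in MI1h_R and none higher, with a median log2 difference of -1.20. Vegfa was at 94.2, 94.4 and 124 CPM in MI1h_R and at 601, 232 and 353 CPM in MI24h 11, 21 and 41 (-1.93 ± 0.34, edgeR adjusted p = 0.00528). Slc2a1 was at 70.8, 68.2 and 96.7 CPM against 670, 255 and 384 CPM (-2.47 ± 0.35, edgeR adjusted p = 0.00185), and Egln3, an oxygen-sensing hydroxylase that HIF induces, at 73.4, 83.3 and 65.3 CPM against 688, 265 and 544 CPM (-2.75 ± 0.47). MI24h 21 was the lowest of its group for all 3 and still exceeded MI1h_R. Adm, the vasodilator adrenomedullin, was at 14.1, 7.33 and 9.77 CPM against 76.4, 28.7 and 91.3 CPM (-2.65 ± 0.38, edgeR adjusted p = 0.00185). Trib3, a stress kinase relative, was at 3.73, 5.44 and 3.36 CPM against 45.7, 9.16 and 32.5 CPM (-2.80 ± 0.50). Il6 was at 0.544, 2.1 and 0.952 CPM against 49.9, 5.93 and 20.8 CPM (-4.40 ± 0.79, or -3.46 without MI24h 11 and -5.06 without MI1h_R 31).

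Genes higher in MI1h_R than in MI24h included a pair that smooth muscle expresses highly. Actg2, enteric smooth muscle actin, was at 38.1, 22.8 and 10.2 CPM against 1.9, 2.38 and 2.95 CPM (3.29 ± 0.56, edgeR adjusted p = 0.00433), and Tagln, transgelin, at 199, 94.3 and 80.3 CPM against 28.6, 29.3 and 23.4 CPM (2.20 ± 0.34). Neither Actg2 nor Tagln passed the test against Sham. The macrophage receptor gene Mrc1 was at 168, 189 and 172 CPM against 45.1, 70.7 and 72.9 CPM (1.49 ± 0.32), a call lost without MI1h_R 31 or MI24h 11. Of 29 mitosis genes 9 were higher in MI1h_R than in MI24h and 5 higher than in MI6h_R.

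Apln, the vasoactive peptide apelin, differed between the reperfused groups and was at 11.2, 11.2 and 16.8 CPM in MI1h_R and 72.5, 94.1 and 51.8 CPM in MI6h_R 11, 21 and 31 (-2.48 ± 0.39, edgeR adjusted p = 0.00624). Akap12, a kinase scaffold, was at 71.7, 132 and 137 CPM against 495, 538 and 493 CPM (-2.16 ± 0.27, edgeR adjusted p = 0.00238), and Krt7, a keratin of mesothelium, at 3.42, 4.64 and 2.92 CPM against 18.5, 23.3 and 14.4 CPM (-2.35 ± 0.36). None of these overlapped, which was a condition for naming them. Cd163, a haemoglobin scavenger receptor of macrophages, was at 14.9, 26.8 and 38.8 CPM against 157, 305 and 211 CPM (-3.06 ± 0.58), a call lost without MI1h_R 11, MI1h_R 31 or MI6h_R 21. Rpl41, a ribosomal protein gene with a very short transcript, was higher, at 12.9, 23.2 and 110 CPM against 1.99, 2.11 and 2.15 CPM (4.55 ± 0.64, and 3.11 without MI1h_R 41). None of the 31 hypoxia genes was called in this contrast.

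**Figure D5:**
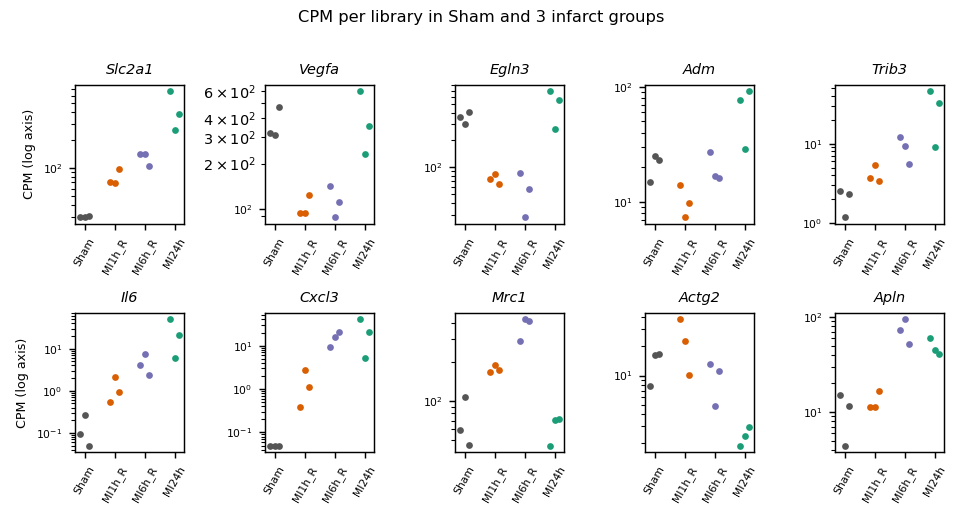
CPM per library on a log axis for 10 genes in Sham, MI1h_R, MI6h_R and MI24h, with values of 0 drawn at the foot of the axis. Slc2a1 lies at 29.4 to 30.7 CPM in Sham, 68.2 to 96.7 in MI1h_R, 104 to 140 in MI6h_R and 255 to 670 in MI24h, and Apln is highest in MI6h_R among the reperfused groups.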

How the data were processed

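RNA was measured in infarct zone tissue of Sprague Dawley rats; per the labels' protocols it was extracted with RNeasy kits and made into NEBNext Ultra libraries sequenced on an Illumina HiSeq. Per the submitters' processing notes, STAR 2.7.3a, RSEM 1.3.1 and the rn7 build were used. The authors deposited estimated counts per gene symbol, which the file holds as whole numbers, and TPM values per gene, which serve here to rank genes and for 1 alternative. Strand handling in the counting is not given in the sources used here, and 492 tested symbols share their counts exactly with another symbol.

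Counts were fitted with edgeR 4.0.16 (R 4.3.3): TMM scaling, the default filter on low counts with the 7 groups, 1 term per group, all 21 libraries sharing the estimate of spread, and the quasi-likelihood test with Benjamini-Hochberg adjustment at 0.05 over the genes tested. CPM are on TMM-scaled library sizes. The SE is the log2 fold change divided by the square root of the F value. The fit was tested on simulated data. Alternatives used DESeq2 1.42.0, limma 3.58.1 (voom, and log2(TPM + 1)), other scaling, no filter, the compared groups alone, the replicate number as a block and each library left out. Groups came from the sample titles.

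The genes and the 85 gene lists were chosen with earlier results of these data known; of 2093 listed entries 1707 were tested, and 21 were matched by another symbol. Named genes are the 5 receptors and coactivator of the ERR and PPAR axis, the 15 largest changes each way against Sham and 10 each way in the direct contrasts (mean of at least 10 CPM, no overlap), the called members of each list with the smallest p or the highest TPM, and uncalled genes with the narrowest interval around 0; others are said to be chosen later. Promoters come from a RefSeq table on GRCr8. Bases from 250 before to 50 after each start were searched, and the 250 before it are printed. Some genes are not reported here.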

Additional observations from a re-analysis of the deposited data

Results flagged for a closer look

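In all, 10 gene entries were called in opposite directions against Sham after 1 h of ischemia with reperfusion and after another injury, and the direct contrast between the injuries was called as well. Both contrasts against Sham use the same 3 Sham libraries. The falls of Aldoc, Adm, Stc1, Pdxp and Rtn4rl2 against Sham depended on the scaling: by library size they were -0.45, -0.22, -0.44, -0.1 and -0.79, none of them called, so under that scaling these 5 were not called in opposite directions. Contrasts of MI24h and MI6h_R with Sham were fitted under TMM scaling alone. Whether the remaining entries keep their falls in those groups by library size was not tested. Folds are edgeR log2 fold changes, and adjusted p is that of the direct contrast.

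Of these, 6 differed between 1 h with reperfusion and 24 h of ischemia. Aldoc, the brain-type aldolase of glycolysis, had 2.83, 6.01 and 3.84 CPM in Sham, 2.33, 1.52 and 1.65 CPM after 1 h with reperfusion and 14.6, 10.4 and 11.7 CPM after 24 h. Its log2 fold change against Sham was -1.21 after 1 h and 1.53 after 24 h, and the direct edgeR difference was -2.74 ± 0.42 (SE; adjusted p = 0.00224). The fall against Sham lost its call without MI1h_R 31, MI1h_R 41 or Sham 31. Adm, the vasodilator peptide adrenomedullin, stood at -1.01 after 1 h and 1.65 after 24 h, a direct edgeR difference of -2.65 ± 0.38 (SE; adjusted p = 0.00185), and its fall was lost without MI1h_R 31, MI1h_R 41, Sham 31 or Sham 41. For Stc1, the secreted hormone stanniocalcin 1, the values were -1.2 and 0.97, with a direct edgeR difference of -2.17 ± 0.42 (SE; adjusted p = 0.00806). Its CPM was 14.5, 7.28 and 8.44 in Sham, 3.65, 4.14 and 5.33 after 1 h and 34.6, 11.7 and 13.1 after 24 h. Its call against Sham was lost without MI1h_R 11, MI1h_R 31 or Sham 11, and the direct call without MI1h_R 31 or MI24h 11 (-1.5 without the latter).

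Pdxp, a pyridoxal phosphate phosphatase, was at -0.84 and 0.85, a direct edgeR difference of -1.69 ± 0.23 (SE; adjusted p = 0.00185) that kept its call whichever single library was left out, although on TPM its value against Sham was 0.03. Rtn4rl2, a Nogo receptor homologue, was at -1.57 and 1.3, and the direct edgeR difference was -2.86 ± 0.5 (SE; adjusted p = 0.00504). Its fall against Sham was lost without MI1h_R 31. Mcoln2, a lysosomal cation channel, went the other way, at 1.63 after 1 h and -1.28 after 24 h. Its CPM was 1.32, 1.09 and 1.65 in Sham, 5.91, 4.5 and 2.16 after 1 h and 0.291, 0.917 and 0.411 after 24 h, and the direct edgeR difference was 2.91 ± 0.47 (SE; adjusted p = 0.00259; 3.53 without MI24h 21).

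Another 4 entries differed between 1 h and 6 h, both with reperfusion. Ccdc34 had 14.4, 13.3 and 11.8 CPM after 1 h against 4.75, 4.63 and 4.74 CPM after 6 h, with log2 fold changes against Sham of 0.84 and -0.64 and a direct edgeR difference of 1.48 ± 0.24 (SE; adjusted p = 0.00624). The others are ribosomal protein entries. Rpl41 was at 2.97 and -1.57 against Sham, with a direct edgeR difference of 4.55 ± 0.64 (SE; adjusted p = 0.00395). MI1h_R 41 held 110 CPM of Rpl41 against 12.9 and 23.2 CPM in the other libraries of its group, and without it the log2 fold change against Sham was 1.54 and the direct difference 3.11. Rps29 was at 1.22 and -1.45, a direct edgeR difference of 2.67 ± 0.49 (SE; adjusted p = 0.0139). Its rise against Sham was lost without MI1h_R 41 or Sham 11, and the direct call without MI6h_R 11 or MI6h_R 21. The entry LOC108352650 has counts identical to those of Rps29 in every library (1.22, -1.45 and a direct difference of 2.67), so the pair is 1 measurement.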

How the results depend on the processing

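Against Sham, the 5809 calls became 3798 with only the groups compared and 4953 with the replicate block, stayed within 1.5 times under the other alternatives (5675 without the filter, 6036 by DESeq2, 7870 by library size, 7889 on TPM), and ran from 4758 without Sham 41 to 5906 without Sham 31. Against MI24h, the 507 calls became 1073 by DESeq2, 1509 by limma-voom, 0 with only the groups compared (1871 at an unadjusted p under 0.05) and 53 with the replicate block, and ran from 71 to 956 with 1 library left out. Against MI6h_R, the 283 calls became 906 by DESeq2, 3020 by limma-voom, 966 on TPM, 180 by library size, 90 with only the groups compared and 3 with the replicate block, and ran from 22 to 1302. The cause was not tested. The numbers are only shared numbers: same-numbered libraries of Sham and MI1h_R had deviations correlated at -0.31, 0.243 and -0.257, and not every library correlated best with its own number, so a call lost under the block is not read as a weaker difference.

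Signs of list medians against Sham depended on scaling: by library size and on TPM they were 0.35 and 0.5 for endothelial genes, 0.15 and 0.21 for complement, 0.3 and 0.34 for collagens, 0.71 and 0.5 for growth factors, 0.59 and 0.64 for clotting, 0.68 and 0.8 for heat shock, 0.26 and 0.37 for antioxidant genes, 0.2 and 0.28 for autophagy, 0.47 and 0.53 for glycolysis, 0.49 and 0.41 for hypoxia, and 0.28 and 0.24 for the clock, all below 0 under TMM. Rnf41 stood at 0.78 and 0.85 there, and Pdxp at 0.03 on TPM. The Z-disc median was -0.04 by DESeq2 and by RLE factors, and limma-voom gave -0.05 for interferon and -0.03 for the proteasome. With 1 library left out, medians changed sign for the Z-disc (-0.37 to 0.29), interferon (-0.44 to 0.87), the proteasome (-0.13 to 0.14), growth factors (-0.2 to 0.1), clotting (-0.2 to 0.26) and heat shock (-0.2 to 0.04), and resident macrophages reached -0.11. Depth limits low genes such as Foxp3, at 0.0777 to 0.29 CPM in MI1h_R, where the SE was 0.76.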
